A study of Mus musculus with 6 samples.

Results

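Microglia of the adult subventricular zone (SVZ) were compared between uninjured mice and mice 7 days after photothrombotic stroke (PT D7). The cells are those that the deposited cell table classes as microglia in the 2 uninjured and the 2 PT D7 libraries, and they number 269 of the 658 cells of the series, with 71 and 84 in the uninjured and 54 and 60 in the PT D7 libraries. All mice, the uninjured ones included, were adult Nestin-CreERT2:R26-yfp animals given tamoxifen, in which the recombinase is driven in neural stem and precursor cells (NSPCs) and the yellow reporter therefore marks NSPCs and not microglia. Photothrombosis (PT) closes cortical vessels by light after an injection of Rose Bengal, and the SVZ on the injured side, away from the lesion, was dissected. Microglia were sorted one per well as CD11b+ CD45low cells, with CD45high Ly6C/Ly6G+ cells kept out, and sequenced by mCEL-Seq2, which counts mRNA molecules by unique molecular identifiers (UMIs). A second injured group, 1 day after PT (PT D1, 2 libraries), enters the fit and is quoted only beside the genes below. The sources used here do not give the mice or the plate behind each library, so condition and batch cannot be told apart and p-values measure the spread between libraries, which may be technical. A plate of the kind the paper describes holds the wells of 2 libraries, so the 2 libraries of a condition may share a plate or a pool of cells.

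Microglia are the resident macrophages of the brain. In the undisturbed tissue they carry a homeostatic programme, with the purinergic receptor P2ry12, the fractalkine receptor Cx3cr1 and the membrane protein Tmem119 as its usual markers. Near damage, dying cells or amyloid they can take up a disease-associated programme with genes for lipid transport and uptake, lysosomal proteases, recognition of dying cells and chemokines. In the SVZ they lie among NSPCs and newborn neurons and are a source of secreted signals for them.

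The sorted cells held the microglial markers in all 4 libraries. The 12 genes of the marker list summed to 24908 and 23305 CPM (the UMIs of a gene per 1000000 UMIs of the tested genes, scaled between libraries by the TMM method) in the uninjured libraries and to 24282 and 21919 at PT D7. The depth was 294984 to 468186 microglial UMIs a library, with a median of 4155 to 5522.5 UMIs a cell. Of the marker lists of other cells, those of monocytes and granulocytes, lymphocytes and ependymal cells had 0 genes above the filter on low counts. The lists of neuroblasts and neurons, astroglia, oligodendrocytes and vessels summed to 200.5 to 1138 CPM a library, and those of neuroblasts and astroglia were higher in library 2 than in library 1 of both conditions. Genes of the choroid plexus, the tissue that makes cerebrospinal fluid, moved with the condition and are described with the lower genes below. Border macrophage markers were also lower at PT D7. Their 3 tested genes, Mrc1, Cbr2 and Stab1, were separated downward, which means that both PT D7 libraries lay below both uninjured ones. This was so for 20.3% of all genes tested. Of the 3, 0 were called by edgeR with or without the block described below. The list summed to 459 and 539.7 CPM in the uninjured and 305 and 282 CPM in the PT D7 libraries, and its part in the results was not tested. The predicted gene Gm10800 took 285199 and 262903 CPM in the uninjured and 458315 and 335119 CPM in the PT D7 libraries, a large part of every library, and was called higher with the library number as a block. In log2 CPM over all genes tested, PT D7 library 2 correlated more with uninjured library 2 (Pearson's r = 0.888) than with PT D7 library 1 (r = 0.861), and PT D7 library 1 more with uninjured library 1 (r = 0.878). These correlations are across genes, which are not independent replicates.

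At PT D7 the chemokines Ccl3 and Ccl4, the receptor tyrosine kinase Axl, the lipase Lpl and the apolipoprotein Apoe rose, and Ddit4, Ttr and Enpp2 fell. UMIs were summed over the microglia of each library, and the 3 conditions were fitted together with edgeR's quasi-likelihood test over 4846 genes. Pairs of CPM below are libraries 1 and 2, with uninjured first and PT D7 after "against". A gene was called at a Benjamini-Hochberg adjusted p under 0.05. With 2 libraries a group, 5 genes (0.103% of those tested) passed upward and 3 (0.0619%) downward, together 0.165%, and an unadjusted p under 0.05 was reached by 355. With the library number as a block, 30 genes (0.619%) were called higher and 13 (0.268%) lower, together 0.887%. No source gives the meaning of this number, and for PT D7 it is uncertain, since both PT D7 libraries carry the same number in their cell names and were told apart by a library index. With the PT D7 numbers swapped the block left 4 calls, Ccl3, Ccl4, Lpl and Ddit4. Calls described below as made only with the block were made under this reading of the PT D7 numbers and not without the block. That wording compares these fits over all microglia and not the further settings. In other settings without a block some of these genes were called and others were not. Without predicted genes named Gm and a number, Cd52 was called (edgeR adjusted p = 0.0428) and Fkbp5 was not (edgeR adjusted p = 0.0751).

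Ccl3 and Ccl4 encode chemokines that attract immune cells, and they lie next to each other on mouse chromosome 11 from 83538670 to 83540191 and from 83553383 to 83555509 (GRCm39). Ccl3 stood at 51.0 and 56.0 CPM in the uninjured and at 455 and 304 CPM in the PT D7 libraries. Both PT D7 libraries lay above both uninjured ones, and the log2 fold change was 2.81 (SE 0.30, edgeR adjusted p = 0.00518). Ccl4 stood at 25.5 and 22.8 CPM in the uninjured and at 505 and 289 CPM in the PT D7 libraries, a log2 fold change of 4.02 (SE 0.51, edgeR adjusted p = 0.00869). Without PT D7 library 1 Ccl4 was not called (edgeR adjusted p = 0.0629), and with only cells of at most 10% mitochondrial UMIs neither chemokine was (edgeR adjusted p = 0.0906 for Ccl3 and 0.124 for Ccl4). A Ccl3 UMI was present in 19.7% and 20.2% of uninjured and 25.9% and 26.7% of PT D7 microglia, and in 4.00% and 9.21% of NSPCs of these conditions. A Ccl4 UMI was present in 11.3% and 9.52% of uninjured and 16.7% and 13.3% of PT D7 microglia, and in 6.67% and 7.89% of NSPCs of these conditions, a cell type that should lack it. With every cell thinned to 1000 UMIs a Ccl4 UMI was left in 7.41% and 5.00% of PT D7 microglia. It was left in 0% of both libraries of uninjured microglia. Taken as 3 divided by the number of cells, the limit on these shares is 4.23% and 3.57%. The limit holds at the thinned depth, and none is set at full depth. A Ccl4 UMI was left in 0% and 1.32% of NSPCs. For the uninjured NSPCs a count of 0 allows up to 4.00% at that depth by the same rule. Median depths of NSPCs were 7002 and 5751 UMIs a cell. Without thinning, the shares of cells with a Ccl3 or Ccl4 UMI thus differed less between the conditions than the levels did.

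Apoe carries cholesterol and phospholipids between cells and lies on chromosome 7 from 19430034 to 19434947. It stood at 1784 and 1980 CPM in the uninjured and at 5634 and 6552 CPM in the PT D7 libraries, a 3.24-fold rise (log2 fold change 1.69, SE 0.26, edgeR adjusted p = 0.0220). Lpl, the lipase that frees fatty acids from lipoproteins, lies on chromosome 8 from 69284603 to 69360100. It stood at 65.1 and 91.3 CPM in the uninjured and at 459 and 349 CPM in the PT D7 libraries, a 5.09-fold rise (log2 fold change 2.35, SE 0.29, edgeR adjusted p = 0.00869). Axl, a receptor through which phagocytes bind dying cells by way of Gas6, lies on chromosome 7 from 25456535 to 25488329. It stood at 11.3 and 16.6 CPM in the uninjured and at 117 and 111 CPM in the PT D7 libraries, a 7.81-fold rise (log2 fold change 2.96, SE 0.47, edgeR adjusted p = 0.0290). All 3 were separated upward, with both PT D7 libraries above both uninjured ones. Apoe was not called without PT D7 library 1 (edgeR adjusted p = 0.0629) or library 2 (0.0716), and neither was Axl (0.224 and 0.0909). Lpl was not called without PT D7 library 1 (edgeR adjusted p = 0.0685). Apoe and Axl also lost the call without scaling factors and without the cells that held 3 or more choroid plexus genes. With equal weight per cell Ccl3, Ccl4, Apoe, Lpl and Axl stayed higher, and none was called (limma adjusted p = 0.101 to 0.555). Without uninjured library 1 edgeR called 0 genes, while 184 had an unadjusted p under 0.05, and without uninjured library 2 it called only Ttr, in fits that take the lone uninjured library to vary like the other groups.

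At PT D1 the same genes stood at other levels, measured against the same uninjured libraries. Ccl3 stood at 261 and 248 CPM and Ccl4 at 69.9 and 199 CPM in the PT D1 libraries, above both uninjured libraries. Axl stood at 21.3 and 55.8 CPM, Apoe at 3050 and 2812 CPM and Lpl at 60.8 and 53.4 CPM. Ttr stood at 605 and 461 CPM and Enpp2 at 39.5 and 31.6 CPM, below both uninjured libraries as at PT D7.

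**Figure D1:**
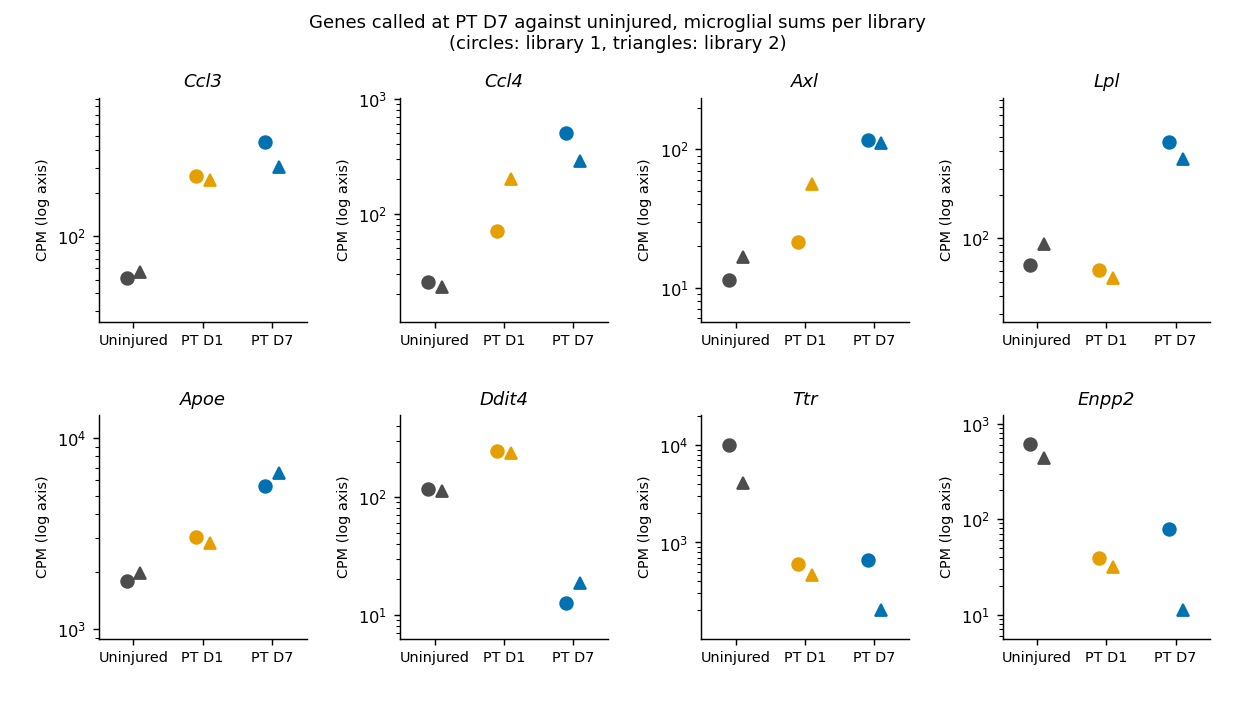
CPM on a log axis of the 8 called genes in the microglia of each library, with uninjured, PT D1 and PT D7 in order and a circle or triangle for library 1 or 2. In each panel both PT D7 points lie beyond both uninjured points, and Ddit4 is the gene whose PT D1 points lie above the uninjured ones while its PT D7 points lie below.

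Separation alone is common. Of the genes tested, 927 (19.1%) were separated upward and 983 (20.3%) downward, together 39.4%, and with an unadjusted p under 0.05 added the shares were 4.02% upward and 3.22% downward. Since 2 libraries against 2 allow no exact permutation p below 1 in 3, separation is a description. The counts of separated genes in each list below are to be read against 19.1% upward and 20.3% downward. Counts of called genes are to be read against 0.103% higher and 0.0619% lower, or 0.619% and 0.268% with the block. Over all genes tested the log2 fold change had a median of -0.01. Without TMM scaling that median moved to -0.245 and the split of separated genes to 435 upward and 1634 downward.

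**Figure D2:**
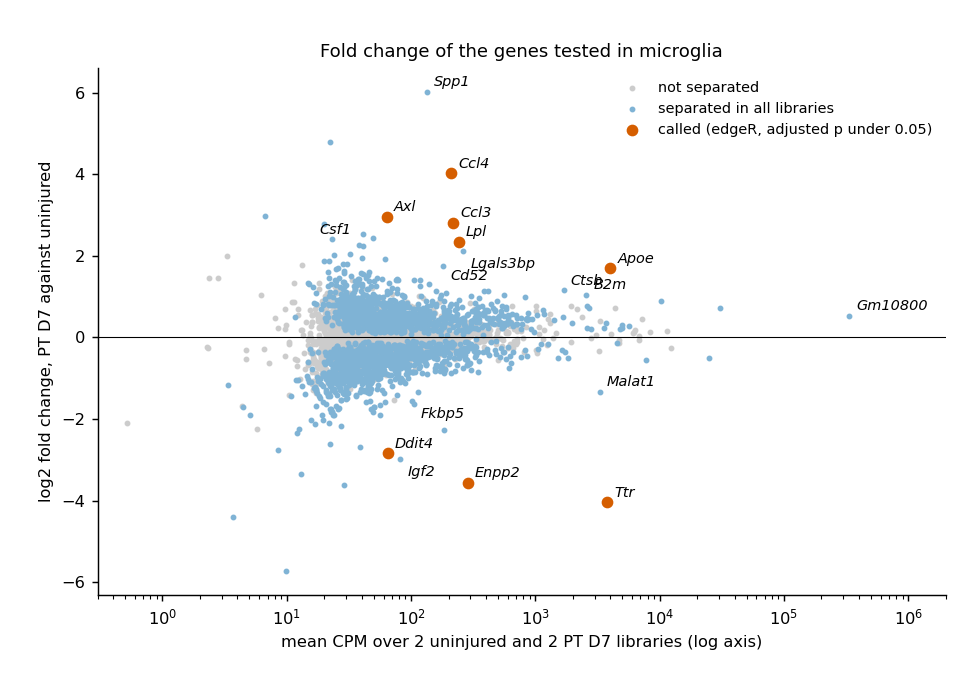
Log2 fold change at PT D7 against uninjured over mean CPM (log axis) for the 4846 genes tested, with separated genes in blue and the 8 called genes in orange. The called genes lie at the outer edge of the cloud for their level, between a log2 fold change of -4.04 for Ttr and 4.02 for Ccl4.

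The disease-associated list was the list with the largest upward shift among those described. Of its 35 genes 30 were tested. Apoe, Axl and Lpl were called higher (against 0.103% of all genes) and 0 genes lower. With the library number as a block 13 were called higher, against 0.619% of all genes. Of the 30, 20 were separated upward with an unadjusted p under 0.05, against 4.02% of all genes. In all, 26 (86.7%, against 19.1% of all genes) were separated upward and 0 downward, and the median log2 fold change was 0.95, against -0.01 over all genes. The receptor Trem2 and its signalling adaptor Tyrobp belong to the list and had log2 fold changes of 0.36 and 0.39, neither called. The 4 tested genes that were not separated were Itgax, Timp2, Serpine2 and Capg. Igf1, Gpnmb, Fabp5 and Ch25h held too few UMIs for the filter and 1 gene of the list had no row in the matrix. Igf1 held 3 and 7 UMIs in the uninjured and 19 and 4 in the PT D7 libraries. The study also named Apoe, Axl, Clec7a, Cd52, B2m and Lgals3bp of the list from these same cells, so their direction is no independent evidence.

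Spp1, which encodes the secreted phosphoprotein osteopontin, had the largest difference of the list and also an uneven one. It held 3 and 0 UMIs in the uninjured and 114 and 14 in the PT D7 libraries, which is 8.50 and 0 against 476 and 51.9 CPM. Over the libraries of each condition the ratio of the levels was 70.0, with an exact 95% interval of 23.4 to 344 that covers counting error only. The edgeR adjusted p of Spp1 was 0.0890 without and 1.24e-06 with the block, within a range of 2.18e-25 to 0.993 over its alternatives. Cst7, an inhibitor of cathepsins named here after its values were seen, held 1 and 0 UMIs in the uninjured and 11 and 11 in the PT D7 libraries, a ratio of 36.1 with an interval of 5.83 to 1489. Its edgeR adjusted p was 0.157 without and 0.0208 with the block. Its PT D7 libraries were even where those of Spp1 were not.

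Further genes of the list were separated and called only with the library number as a block. Cd52, a small surface glycoprotein, stood at 68.0 and 95.5 CPM in the uninjured and 246 and 311 CPM in the PT D7 libraries (log2 fold change 1.76, SE 0.31, edgeR adjusted p = 0.0596). Clec7a, the receptor for fungal glucans, stood at 8.50 and 16.6 against 50.1 and 77.9 CPM (log2 fold change 2.27, SE 0.54). Csf1, the growth factor on which microglia depend, stood at 8.50 and 14.5 against 54.3 and 85.3 CPM (log2 fold change 2.53, SE 0.50). None of the 3 overlapped between the groups. Ank, a pyrophosphate transporter, had a log2 fold change of 1.92, and Spp1, Cd52, Clec7a, Csf1 and Ank were not called in the fit without the block. Of genes outside all lists, AU020206 (53.8 and 60.2 against 146 and 159 CPM), Ldha, which makes lactate (79.3 and 78.9 against 251 and 145 CPM), Pld3, a lysosomal nuclease (76.5 and 62.3 against 175 and 156 CPM), and the cytidine deaminase Apobec1 (34.0 and 47.7 against 125 and 100.1 CPM) had the same standing.

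Among chemokines and cytokines, 17 of 34 listed genes were tested, 2 were called higher (Ccl3 and Ccl4, against 0.103% of all genes) and 0 lower. With the block 4 were called higher (against 0.619% of all genes), the others being Ccl2 and Csf1. Ccl2, which draws monocytes through CCR2, stood at 8.50 and 20.8 CPM in the uninjured and 33.4 and 133 CPM in the PT D7 libraries (log2 fold change 2.44, SE 0.63, edgeR adjusted p = 0.293). Its higher values came mainly from PT D7 library 2. Of the 17 genes, 8 (47.1%, against 19.1% of all genes) were separated upward and 0 downward, with a median log2 fold change of 0.46.

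In cholesterol and lipid handling, 15 of 46 listed genes were tested, with Apoe and Lpl called higher (against 0.103% of all genes) and a median log2 fold change of 0.30. Of the 15, 8 (53.3%, against 19.1% of all genes) were separated upward and 2 (13.3%, against 20.3%) downward. Npc2, which moves cholesterol out of lysosomes, stood at 229 and 228 CPM in the uninjured and 338 and 334 CPM in the PT D7 libraries and was not called (edgeR adjusted p = 0.662). Of 48 lysosomal genes 44 were tested, with a median of 0.33. Of these, 27 (61.4%, against 19.1% of all genes) were separated upward and 3 (6.82%, against 20.3%) downward. Of the 27, 8 had an unadjusted p under 0.05. edgeR without the block and DESeq2 called 0 of the 44, and 2 were called higher under the block, against 0.619% of all genes. The 2 were the protease Ctsb, at 986 and 1106 CPM in the uninjured and 2163 and 2496 CPM in the PT D7 libraries, and the membrane protein Cd63, at 229 and 176 against 380.1 and 438 CPM. Ctsz, another cathepsin, stood at 371 and 322 against 659.9 and 619 CPM and Gusb, which cleaves glucuronides, at 130.3 and 129 against 192 and 289 CPM, both separated and not called. Ctsb, Cd63, Ctsz and Gusb also belong to the disease-associated list, so the lysosomal and disease-associated lists are not separate results.

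Class I antigen presentation had 14 of 23 listed genes tested, a median log2 fold change of 0.21 and 0 called by edgeR without the block or by DESeq2. Of the 14, 7 (50.0%, against 19.1% of all genes) were separated upward, 3 of them with an unadjusted p under 0.05. Another 2 (14.3%, against 20.3%) were separated downward. B2m, the light chain shared by all class I molecules, stood at 1524 and 1800 CPM in the uninjured and 3521 and 3349 CPM in the PT D7 libraries (log2 fold change 1.05, SE 0.28, edgeR adjusted p = 0.366). H2-D1, a class I heavy chain whose reads may be split with near-identical class I genes, stood at 209.6 and 268 against 489 and 575 CPM (log2 fold change 1.15, SE 0.25, edgeR adjusted p = 0.193). Both were called with the block, which called 0.619% of all genes higher. Psme1, a proteasome activator, stood at 62.3 and 68.5 against 125 and 111 CPM. In class II presentation 1 of 6 tested genes (16.7%) was separated upward and 0 were called by edgeR or DESeq2.

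Of 44 interferon-response genes 23 were tested. Without the block edgeR called 0 and DESeq2 1, and the median log2 fold change was 0.44. Of the 23, 12 (52.2%, against 19.1% of all genes) were separated upward, 7 of them with an unadjusted p under 0.05, and 1 (4.35%) downward. Lgals3bp, a secreted glycoprotein that also belongs to the disease-associated list, stood at 79.3 and 116 CPM in the uninjured and 393 and 459.8 CPM in the PT D7 libraries (log2 fold change 2.11, SE 0.38, edgeR adjusted p = 0.0675), and it was called with the block. Ifitm3, which blocks virus entry, stood at 22.7 and 33.2 against 87.7 and 70.5 CPM, Ifi27l2a at 2.83 and 10.4 against 37.6 and 40.8 CPM, and Bst2, which tethers budding virus, at 36.8 and 47.7 against 91.9 and 92.7 CPM. All 3 were separated upward and not called.

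The promoters of 4 genes are shown because they hold the letters of response elements for the interferon and NF-kB pathways. The core of the interferon-stimulated response element was searched as GAAA and GAAA with any 2 bases between them, on both strands of the 250 bases before each gene's start (GRCm39, matches may overlap), and was found in 3.32% of 21757 promoters. It was found in 7 of the 22 tested interferon-response genes with a promoter, namely Bst2, Rtp4, Trim30a, Ifi27, Ifit3, Ifi204 and Cxcl10. Of the 7, Ifit3, Ifi204 and Cxcl10 were not separated, and Lgals3bp, Ifitm3 and Ifi27l2a were not among the 7. The interferon genes shown were picked from those separated upward, so they do not tie the core to the rise. The same core was in 5 of 43 lysosomal, 2 of 30 disease-associated and 2 of 28 immediate early genes. It was thus not confined to the interferon list. Rtp4 and Trim30a had log2 fold changes of 1.27 and 0.59, and like Bst2 they were separated upward and not called. An NF-kB site, searched as GGGA and TTTCC with any 1 base between them, was found in 0.423% of all promoters and in Csf1 and Cxcl2 of the 17 chemokine and cytokine genes. It was also found in Tlr3 and Nfkbia of the 21 Toll-like receptor and NF-kB genes, and in Cd74 of the 6 class II genes. Nfkbia was lower at PT D7, so the site was not confined to higher genes. Motifs are in capitals, and the sequence is printed 5′ to 3′ on the strand of the gene. In Trim30a and Csf1 the match lies on the opposite strand, so that the capitals show its reverse complement. The windows are chr8:71990201-71990276 (minus strand) for Bst2, chr16:23428565-23428645 (plus) for Rtp4, chr7:104114408-104114466 (minus) for Trim30a and chr3:107667900-107667969 (minus) for Csf1. A match describes the letters and not binding.
Bst2: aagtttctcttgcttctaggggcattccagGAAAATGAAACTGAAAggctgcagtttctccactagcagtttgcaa
Rtp4: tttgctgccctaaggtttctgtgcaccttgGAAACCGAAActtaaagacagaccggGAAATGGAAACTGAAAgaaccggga
Trim30a: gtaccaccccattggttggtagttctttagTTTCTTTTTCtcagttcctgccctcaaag
Csf1: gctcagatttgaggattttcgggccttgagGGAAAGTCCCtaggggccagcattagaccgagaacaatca

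Homeostatic genes were mostly lower and none passed the test. Of the 29 genes of the list 28 were tested. Among these edgeR called 0 with or without the block and DESeq2 called 0, and the median log2 fold change was -0.26. Of the 28, 14 (50.0%, against 20.3% of all genes) were separated downward and 1 (3.57%, against 19.1%) upward. P2ry12 stood at 1773 and 1827 CPM in the uninjured and 1362 and 1157 CPM in the PT D7 libraries, which did not overlap (log2 fold change -0.52, SE 0.30, edgeR adjusted p = 0.770). Cx3cr1 stood at 2203 and 2128 against 1558 and 1491 CPM (log2 fold change -0.51, SE 0.25), also without overlap. Tmem119 stood at 969 and 1019 against 894 and 553 CPM, with PT D7 library 1 close to the uninjured libraries. At PT D1 the same 3 genes differed from uninjured by -2.41, -2.16 and -2.06 on the log2 scale. The homeostatic genes that were separated with an unadjusted p under 0.05 were 3, Ecscr (87.8 and 76.8 against 37.6 and 29.7 CPM), Mef2a, a transcription factor (312 and 374 against 226 and 208 CPM), and the lectin Siglech (867 and 672 against 555 and 445 CPM). Gpr34, a receptor for lysophosphatidylserine, had ranges that overlapped between the groups.

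Ddit4, an inhibitor of mTORC1 that stress and glucocorticoids induce, fell. It lies on chromosome 10 from 59785491 to 59788492 and stood at 116 and 112 CPM in the uninjured and 12.5 and 18.5 CPM in the PT D7 libraries (log2 fold change -2.83, SE 0.38, edgeR adjusted p = 0.0114). It was not called without PT D7 library 1 (edgeR adjusted p = 0.159) or library 2 (0.0652). At PT D1 it stood at 246 and 238 CPM, above both uninjured libraries. Fkbp5, a co-chaperone of the glucocorticoid receptor, stood at 142 and 174 CPM in the uninjured and 58.5 and 44.5 CPM in the PT D7 libraries and was called only with the block (log2 fold change -1.62, SE 0.31, edgeR adjusted p = 0.0890 without it). Tsc22d3, another glucocorticoid target, stood at 70.8 and 102 against 12.5 and 40.8 CPM, and the transcription factors Klf4 and Cebpb at 65.1 and 120.4 against 25.1 and 37.1 CPM and at 122 and 99.6 against 54.3 and 29.7 CPM, separated and not called in either fit. Ddit4, Fkbp5 and Tsc22d3 belong to no gene list used here and are described for the size of their difference. A glucocorticoid response element, searched as AGAACA and TGTTC with any 3 bases between them, was in 4 of 21757 promoters (0.0184%). It was in 0 of 95 genes chosen by the naming rule that have a promoter. A pattern this rare would be absent from most sets of 95 genes, so its absence is not informative. Sequence outside the promoters was not searched, and whether glucocorticoids act on Ddit4, Fkbp5 or Tsc22d3 here was not tested.

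Other lower genes held the adrenergic receptor Adrb1 (136 and 166 against 62.6 and 40.8 CPM) and Gm42428 (169.9 and 154 against 79.4 and 48.2 CPM), both called only with the block, and the transporters Slc36a1 (82.1 and 72.6 against 16.7 and 29.7 CPM) and Slc9a9 (79.3 and 76.8 against 20.9 and 26.0 CPM), called in neither fit. Malat1, an abundant nuclear RNA, stood at 5251 and 4184 CPM in the uninjured and 1925 and 1824 CPM in the PT D7 libraries (log2 fold change -1.33, SE 0.32, edgeR adjusted p = 0.254), and it was called only with the block. Of the 6 tested genes of the list for RNA quality and nuclear RNA, 1 was separated upward and 1, Malat1, downward. Each is 16.7%, against 19.1% and 20.3% of all genes. The median share of mitochondrial UMIs a cell was 7.08% and 7.72% in the uninjured and 5.51% and 7.98% in the PT D7 libraries. Immediate early genes, which neurons and glia switch on within minutes of a stimulus and which tissue dissociation can also raise, had 0 of 28 called by edgeR or DESeq2. Of the 28, 2 (7.14%) were separated upward and 9 (32.1%, against 20.3% of all genes) downward, 3 of the 9 with an unadjusted p under 0.05. Rhob stood at 748 and 776 against 484 and 430.2 CPM and Btg2 at 178 and 212 against 100.2 and 145 CPM.

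Ttr, which carries thyroid hormone and retinol and is made in bulk by the choroid plexus, had the largest fall of the called genes. It stood at 10153 and 4050 CPM in the uninjured and 664 and 204 CPM in the PT D7 libraries (log2 fold change -4.04, SE 0.57, edgeR adjusted p = 0.0147). Enpp2, which makes lysophosphatidic acid, stood at 609 and 438 against 79.4 and 11.1 CPM (log2 fold change -3.56, SE 0.52, edgeR adjusted p = 0.0189). With only cells of at most 10% mitochondrial UMIs neither was called (edgeR adjusted p = 0.124 and 0.142). The choroid plexus list had 17 genes of which 6 were tested, 2 were called lower, 5 with the block, and its summed level was 11354 and 4840 CPM in the uninjured, 729 and 571 CPM at PT D1 and 856 and 248 CPM at PT D7. Ttr and Enpp2 belong to the list and make up most of that sum, and its other 15 genes summed to 592 and 353 CPM in the uninjured and 113 and 33.4 CPM in the PT D7 libraries. In the uninjured libraries 29 and 61 microglia held UMIs of 3 or more of these genes, against 4 and 0 at PT D7. NSPCs held Ttr as well. After thinning to 1000 UMIs a Ttr UMI was held by 87.3% and 95.2% of microglia and 92.0% of NSPCs in uninjured mice, and by 7.41% and 8.33% of microglia and 3.95% of NSPCs at PT D7. In uninjured mice the share in NSPCs lay between those of the microglia libraries, and at PT D7 it lay below both. What part free RNA of this tissue had in the result was not tested. Lrrc17, outside all lists and called only with the block, stood at 368 and 249 CPM in the uninjured and 16.7 and 108 CPM in the PT D7 libraries. Its log2 fold change was -2.27 with all cells and 0.01 without the cells that held 3 or more choroid plexus genes. Fewer cells of a type and less RNA per cell cannot be told apart in such sums.

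**Figure D3:**
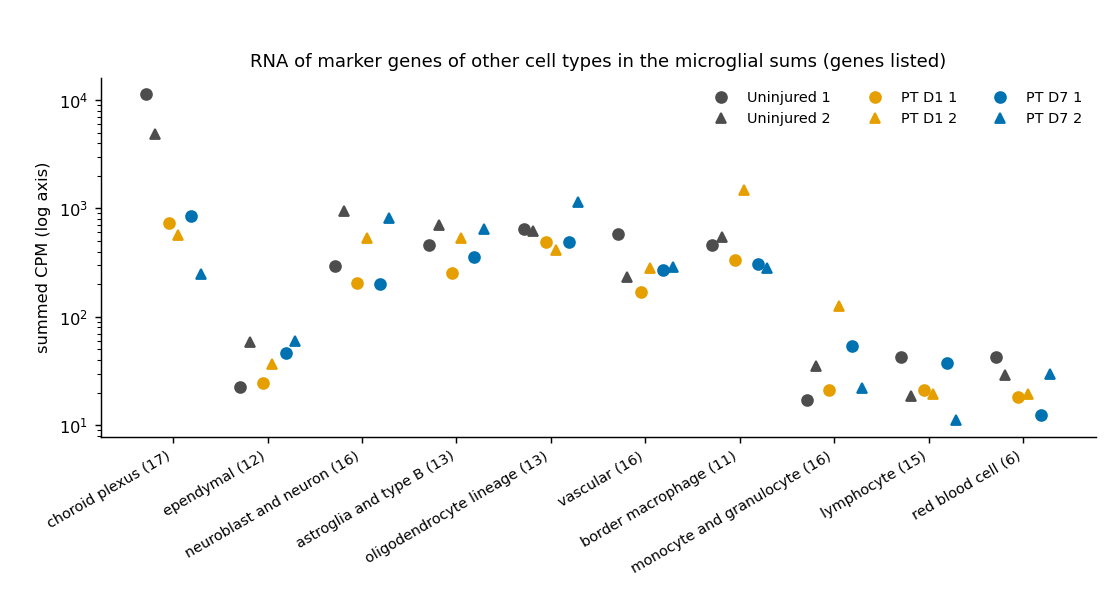
Summed CPM (log axis) of the marker lists of cell types other than microglia in the microglia of each library, with the number of listed genes in brackets, colours for uninjured, PT D1 and PT D7, and a circle or triangle for library 1 or 2. The choroid plexus sum is 4840 CPM or more in the uninjured and 856 CPM or less in the PT D7 libraries.

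The study names 9 genes for signals to NSPCs, chosen in part on these cells and so no independent evidence of direction. Of the 9, 5 (55.6%, against 19.1% of all genes) were separated upward and 2 (22.2%, against 20.3%) downward. Apoe was the only one called without the block. Igfbp4, which binds insulin-like growth factors, stood at 25.5 and 29.1 CPM in the uninjured and 58.5 and 66.7 CPM in the PT D7 libraries and Npnt, a matrix ligand of integrins, at 31.2 and 24.9 against 79.4 and 66.7 CPM. Neither was called (edgeR adjusted p = 0.553 and 0.516). Igf2, a growth factor that the choroid plexus also secretes, belongs to the choroid plexus list above as well. It stood at 130.3 and 158 against 37.6 and 0 CPM and was called lower with the block. Of 27 microglia genes that the study names for these data, 2 were called higher (Axl and Apoe, against 0.103% of all genes) and 0 lower. With the block 8 of them were called higher (against 0.619% of all genes), the others being Clec7a, Cd52, B2m, Lgals3bp, Gm10800 and Gm29055. Of the 27, 11 (40.7%, against 19.1% of all genes) were separated upward and 4 (14.8%, against 20.3%) downward, with a median log2 fold change of 0.22. The study named many of these genes, Apoe and Axl included, as markers of sub-clusters drawn from the same cells. Their direction here is no independent evidence.

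Most genes of cytosolic ribosomal proteins were separated upward. Of 80 such genes 72 were tested. Among these edgeR and DESeq2 called 0, and the median log2 fold change was 0.42, or 0.17 without TMM scaling. Of the 72, 54 (75.0%, against 19.1% of all genes) were separated upward, 23 of them with an unadjusted p under 0.05, and 2 (2.78%, against 20.3%) downward. Nuclear genes of oxidative phosphorylation, also housekeeping, had 18 of 74 (24.3%, near the share of all genes) separated upward, 7 (9.46%) downward and a median of 0.04. The actin list had 16 of 48 tested genes (33.3%) separated upward and 7 (14.6%) downward, with Myo1f (119 and 97.6 against 150.4 and 189 CPM) and Cotl1 (90.6 and 93.4 against 213 and 133 CPM) higher. Phagocytic receptors had 7 of 25 separated upward and 9 downward, with Axl the only call and its ligand Gas6 lower (130.3 and 106 against 83.5 and 55.6 CPM). Complement and Fc receptors had 7 of 16 (43.8%) separated upward and 0 downward, with the common Fc chain Fcer1g at 717 and 670.4 against 1140 and 953 CPM. The Toll-like receptor and NF-kB list had 8 of 21 (38.1%) separated upward and 4 (19.0%) downward, with Tlr2 higher (42.5 and 41.5 against 87.7 and 66.7 CPM) and the inhibitor Nfkbia lower (359.7 and 355 against 196 and 259.6 CPM). Endocytosis (8 of 32 upward, 4 downward), heat shock and chaperones (9 of 26, 3), the STAT3 list (3 of 22, 3), the cell cycle (3 of 19, 1) and mitochondrially encoded genes (2 of 13, 1) had 0 calls by edgeR or DESeq2, and in each of these lists at most 1 gene separated upward and 1 separated downward had an unadjusted p under 0.05.

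**Figure D4:**
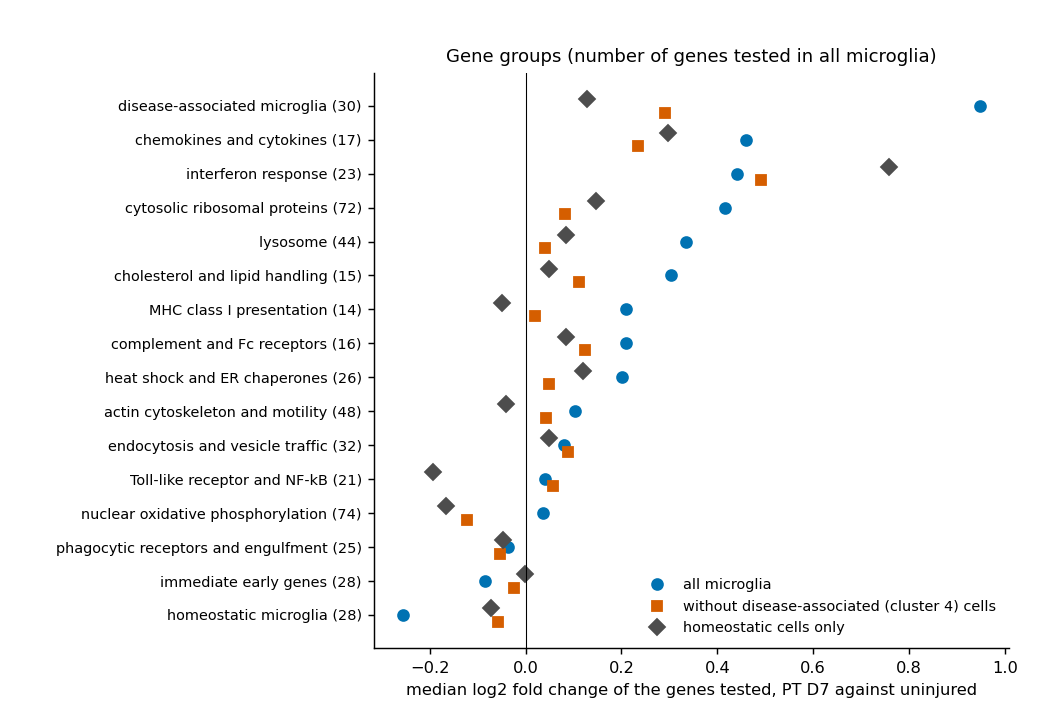
Median log2 fold change at PT D7 against uninjured of each gene list over all microglia, over microglia without the disease-associated sub-cluster and over homeostatic microglia alone, with the number of genes tested in brackets. The disease-associated list goes from 0.95 over all cells to 0.29 and 0.13, while the interferon list goes from 0.44 to 0.49 and 0.76, each over the genes that passed the filter in those cells. The sub-clusters were drawn from the expression of these same cells, so the fall of the disease-associated list was fixed in part by the labels.

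The deposited table splits microglia into 5 sub-clusters. The authors drew these from the genes of these same cells, so the shares that follow describe the labels and are no independent evidence for the genes above. Homeostatic microglia made up 76.1% and 83.3% of uninjured and 33.3% and 53.3% of PT D7 microglia. Disease-associated microglia (cluster 4) made up 1.41% and 5.95% of uninjured and 29.6% and 21.7% of PT D7 microglia, with exact 95% Clopper-Pearson intervals of 0.0357% to 7.60% and 1.96% to 13.3% for the uninjured and 18.0% to 43.6% and 12.1% to 34.2% for the PT D7 libraries. A sub-cluster that the authors left unnamed (cluster 2) made up 22.5% and 7.14% and then 37.0% and 21.7%, and its ranges overlapped between uninjured and PT D7. Activated microglia, which make up 90.1% and 52.6% of the PT D1 libraries, were 0 of 54 and 0 of 60 cells at PT D7. The exact 95% intervals reach up to 6.60% and 5.96%. Development-associated microglia were at most 3.57% in any of the 4 uninjured and PT D7 libraries. At PT D1 they were 1.41% and 46.1%, so the PT D1 libraries, which enter the fit, differed from each other in make-up. The intervals cover counting error only.

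**Figure D5:**
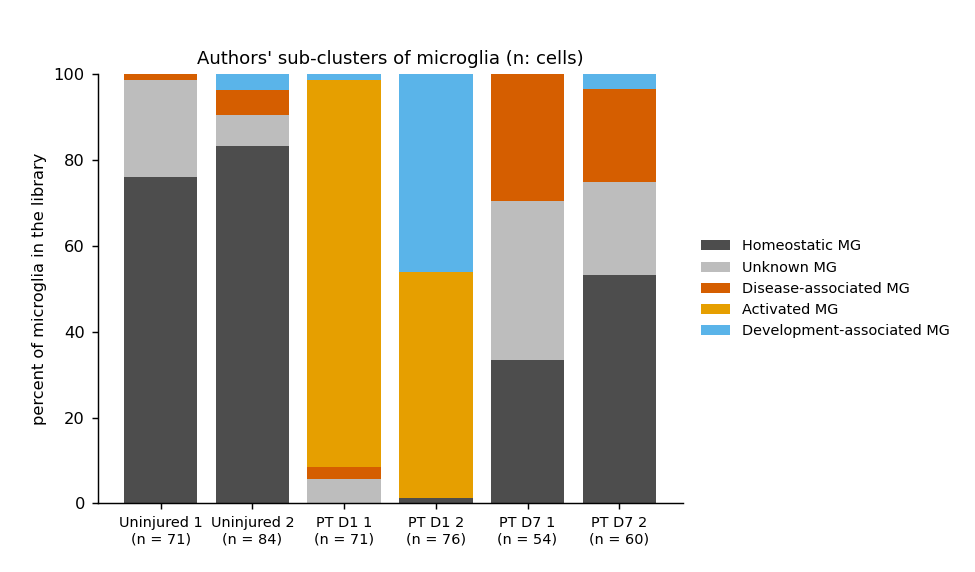
Percent of the microglia of each of the 6 libraries in each sub-cluster of the deposited table, stacked to 100%, with the number of cells below each bar. Disease-associated microglia take 29.6% and 21.7% of the PT D7 bars and 1.41% and 5.95% of the uninjured bars.

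The genes called higher stood higher in the disease-associated than in the homeostatic cells at PT D7, with UMIs summed over the libraries and so without replicates or TMM scaling. The study describes the disease-associated sub-cluster by Apoe and Axl, among others, in these same cells. Their higher level there thus follows from the labels, and for the other genes too the labels are no independent evidence. Apoe stood at 11865 CPM in disease-associated and 2510 CPM in homeostatic PT D7 microglia, Lpl at 754 and 70.2 CPM, and Axl at 243 and 10.8 CPM. Ccl3 stood at 773 and 108 CPM and Ccl4 at 902 and 32.4 CPM in the same cells. The 6 disease-associated cells of the uninjured libraries held Apoe at 9078 CPM, Lpl at 334 CPM and Axl at 141 CPM, whereas Ccl3 and Ccl4 stood there at 35.2 and 35.2 CPM, from 2 UMIs each. Spp1 stood at 605 CPM in disease-associated and 0 CPM in homeostatic PT D7 microglia. Ddit4 differed within the homeostatic cells. It stood at 123 CPM in homeostatic uninjured and 21.6 CPM in homeostatic PT D7 microglia, and disease-associated PT D7 microglia held 0 Ddit4 UMIs. Malat1 stood at 4841 CPM in homeostatic uninjured and 2137 CPM in homeostatic PT D7 microglia.

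Homeostatic microglia were also compared alone, with 54 and 70 uninjured and 18 and 32 PT D7 cells, a choice made after seeing the data. The PT D1 libraries, with 0 and 1 such cells, were left out of this fit. The disease-associated list had a median log2 fold change of 0.13 over 21 tested genes, with 5 separated upward and 3 downward. Of all 2618 genes tested in these cells 433 were separated upward and 500 downward. The sub-cluster labels were drawn from the expression of these same cells. A smaller median of this list after a choice of cells by label was thus fixed in part in advance. The same 21 genes had a median of 0.76 over all microglia, and Axl and Ccl4 did not pass the filter in homeostatic cells. Lgals3bp was called higher there, at 102 and 111 against 305 and 435 CPM (log2 fold change 1.83, edgeR adjusted p = 0.0214), and Ttr, Enpp2 and Igf2 were called lower. No alternative to this fit of homeostatic cells was run. Over the alternatives to the fit of all microglia, this one among them, the adjusted p of Lgals3bp (edgeR, DESeq2 or limma) ranged from 4.22e-07 to 0.956. Apoe stood in homeostatic cells at 1549 and 1645 against 1435 and 3802 CPM, with overlap between the groups. The interferon list had a median of 0.76 over 11 genes, against 0.47 for the same genes over all microglia, with 8 separated upward and 1 downward. Ddit4 stood at 149 and 147 against 17.9 and 29.6 CPM and was not called. Without the disease-associated sub-cluster only Ttr and Enpp2 were called, and the medians were 0.29 for the disease-associated list (over 26 genes, which had 0.89 over all microglia), 0.08 for ribosomal proteins, 0.04 for the lysosome and -0.06 for homeostatic genes. Fewer cells enter these sums, and how far that lowers the number of calls was not tested.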

How the data were processed

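SVZ cells of 3 conditions (uninjured, PT D1 and PT D7) were sequenced by mCEL-Seq2 in 6 libraries of 192 wells. Per the submitters' processing notes, reads were demultiplexed with bcl2fastq 2.17.1.14. The genome was GRCm39. Aligner and counting program: not given in the sources used here. Deposited values are whole-number counts of UMIs per gene and cell, not normalized, for 34203 rows, 92 of them spike-ins with 0 UMIs. Cells entered the matrix above 1000 UMIs and with at most 25 percent mitochondrial UMIs, by the authors' filter, a percentage they deposited for each cell beside its class and sub-cluster. Doublets were not called here, since cells were sorted 1 per well. The paper also reports that cells with UMI totals far above the median were discarded as putative doublets. The deposited cell annotation holds 13 columns that were not used. Libraries shared 29 to 66 well barcodes a pair, with 0 identical profiles.

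UMIs were summed over the microglia of each library and fitted with edgeR 4.0.16 (TMM, filterByExpr, quasi-likelihood F-test, R 4.3.3), all 3 conditions in 1 fit with no block, and p-values were adjusted over all 4846 genes tested. Libraries and not cells were the replicates. Alternatives used DESeq2 1.42.0, limma 3.58.1, other scalings, filters and cells, each library left out, and the library number as a replicate block. Same-numbered libraries deviated together (correlations of 0.220, 0.193 and 0.262 across genes), so the block is given beside the results it changes. No source says what the number stands for, and at PT D7 it is uncertain. Both PT D7 libraries carry 1 in the second field of their cell names, so the fourth field, a library index, was read, and the block was also run with the PT D7 numbers swapped, a choice made after seeing the data.

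The genes and lists were chosen with earlier results of these data known. Named genes are those called, the 10 largest rises and 10 largest falls among separated genes with an unadjusted p under 0.05 and a mean of at least 50 CPM, up to 4 members of each list by p (or up to 3 by level), the microglia genes that the study names, the leading markers of other cells, and up to 8 rises and 8 falls called only with the block. Cst7, Mrc1, Trem2, Tyrobp, Igf1, Gpnmb, Fabp5, Ch25h, Itgax, Timp2, Serpine2, Capg, Rtp4, Cxcl2 and Trim30a fall outside this rule and were named after their values were seen. Ifi27, Ifit3, Ifi204, Cxcl10, Tlr3 and Cd74 also fall outside it and are named only for their motifs. Motifs were searched in GRCm39 with GENCODE gene starts.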

Additional observations from a re-analysis of the deposited data

Results flagged for a closer look

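Genes described above that differed between PT D7 and PT D1 at an edgeR adjusted p under 0.05 are given here. The effects at both days were measured against the same uninjured libraries, so the tested difference is PT D7 against PT D1, and effects are log2 differences from the uninjured libraries.

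Ddit4 was higher than uninjured at PT D1 (1.08) and lower at PT D7 (-2.83), and the difference between the days was -3.92 (edgeR adjusted p = 0.000432). Other genes were also lower at PT D7 than at PT D1, with differences of -2.79 for Cebpb, -2.38 for Klf4, -2.33 for Fkbp5, -1.99 for Tsc22d3, -1.81 for Nfkbia, -1.61 for Gm42428 and -1.23 for Tlr2. Of these, Tlr2 was still above uninjured at PT D7, and the others were below it. Lpl was lower than uninjured at PT D1 (-0.47) and higher at PT D7 (2.35), a difference of 2.82 (edgeR adjusted p = 0.000948). The differences were 2.72 for Clec7a, 1.48 for Cd52, 1.43 for AU020206 and 1.06 for Apoe.

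The homeostatic genes Gpr34, P2ry12, Cx3cr1 and Tmem119 stood higher at PT D7 than at PT D1 by 3.48, 1.90, 1.66 and 1.60. Npnt stood higher by 4.57, Myo1f by 2.32 and Igfbp4 by 2.18. All of these differences are on the log2 scale.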

How the results depend on the processing

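The count of 8 called genes depended on the setting. edgeR called 4 genes with at least 10 UMIs required in every library, 1 with cells thinned to 1000 UMIs, 35 without a filter on low counts, 43 with the replicate block and 4 with the block and the PT D7 numbers swapped. Limma called 2 with equal weight per cell, Ttr and Enpp2. Ccl3, Ccl4, Axl, Lpl, Apoe and Ddit4 kept their direction there and were not called (limma adjusted p = 0.101 to 0.555). The gene called with thinned cells was Ttr. edgeR called 16 without cluster 2 cells, 2 without cluster 4 cells and 4 in homeostatic cells only. Leaving out each library in turn gave 0 (without uninjured library 1) to 38 (without PT D1 library 2) called genes, with 33 without PT D1 library 1, 4 without PT D7 library 1 and 1 without uninjured library 2. The other settings gave 6 to 10, but not always of the same genes. DESeq2 called 9, of which 7 were among the 8, with Axl left without an adjusted p. Of 7 calls with at most 10% mitochondrial UMIs a cell, 4 were among the 8, and Ccl3, Ccl4, Ttr and Enpp2 were lost (edgeR adjusted p = 0.0906 to 0.142). Apoe and Axl were lost without scaling factors (6 calls, edgeR adjusted p = 0.101 and 0.0927) and without cells with 3 choroid plexus genes (7 calls, 0.114 and 0.108).

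The count of 1910 separated genes was 987 with at least 10 UMIs in every library, 375 with thinned cells, 933 in homeostatic cells only and 5162 without the filter, and ranged from 2120 to 4376 with a library left out. Fewer or more genes were tested in these settings, and with 1 library in a group separation is met more easily. The median log2 fold change of the disease-associated list, 0.95, was 0.66 with at least 10 UMIs in every library, 0.40 with thinned cells, 0.77 with equal weight per cell, 0.71 without scaling factors, 0.13 in homeostatic cells only and 0.29 without cluster 4 cells. With a library left out this median ranged from 0.95 to 1.29, the highest without uninjured library 2. The settings by sub-cluster choose cells by labels drawn from these same cells, so their lower medians are no independent evidence.

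Of 1379 recomputed values of 64 described genes, 1367 had the direction of the main fit. The exceptions, as log2 fold changes, were Cd63 (-0.185 in homeostatic cells only, -0.110 without cluster 4 cells), Tmem119 (0.0221 and 0.00712 in the same settings), Npc2 (-0.0326 with thinned cells, -0.0404 without cluster 4 cells), Pld3 (-0.00655 without cluster 4 cells), Gm10800 (-0.00450 in homeostatic cells only), Lrrc17 (0.0147 without cells with 3 choroid plexus genes), Tlr2 (-0.0706) and Trem2 (-0.109) with thinned cells, and Gpr34, which ranged from -0.219 to 0.0101 with a library left out. The cause was not tested. The replicate block reversed none of these genes, and it called further genes that are not described here. The settings of homeostatic cells only, of swapped PT D7 numbers and of no predicted genes named Gm and a number (10 calls) were chosen after seeing the data. With 2 libraries a group and 54 to 84 cells a library, genes with few UMIs, such as Spp1, are measured with wide error.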
